A study of Mus musculus with 6 samples.

Results

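Scx, Tnmd and Mkx, genes of the tendon lineage, and Thbs1, Thbs2, Thbs3 and Thbs4, genes of the thrombospondin family, were followed as a set of 7 genes listed by name among the 19938 genes measured. The samples were mouse bone marrow cells, taken from dissociated tissue, positive for CD73, an adenosine-producing ectoenzyme, and negative for the leukocyte protein CD45 and the erythroid protein Ter119. Sorting on CD105, the TGF-beta co-receptor endoglin, gave 3 CD73+CD105- samples and 3 CD73+CD105+ samples, with 1 array each. The labels call the samples biological replicates but name no animals, so the p-values cover only the spread among these 6 arrays, which may be technical. Strain, age and sex of the mice do not appear in the labels. The design asks how these CD73+ fractions of marrow stroma, which the series studies for engraftment beside blood stem cells, differ in transcripts.

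Tendon is a dense cord of aligned collagen fibres made by tenocytes. The transcription factor encoded by Scx (scleraxis) marks tendon progenitors, the homeobox factor encoded by Mkx (Mohawk) acts in the growth of collagen fibrils, and Tnmd (tenomodulin) encodes a membrane glycoprotein of mature tenocytes whose expression is known to be driven by scleraxis. Thrombospondins are secreted calcium-binding glycoproteins that regulate how cells meet the matrix. The products of Thbs1 and Thbs2 assemble as trimers, carry type 1 repeats that bind the receptor CD36 and are known to restrain vessel growth. Those of Thbs3 and Thbs4, like the related cartilage and tendon protein encoded by Comp, assemble as pentamers and lack those repeats.

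None of the 7 genes passed the threshold (0 of 7 in limma, Benjamini-Hochberg adjusted p under 0.05 over all genes), where 1.82% of all genes did. Their adjusted p-values ran from 0.0988 for Thbs4 to 0.283 for Tnmd. The 3 tendon genes, Thbs2 and Thbs4 had higher means in CD73+CD105+ cells, by 1.26-fold to 1.5-fold, and Thbs1 and Thbs3 had lower means there, by 1.16-fold and 1.21-fold. At an unadjusted p under 0.05 there were 6 of the 7 genes, all but Tnmd, against 17.7% of all genes. The arrays of both populations did not overlap for 4 of the 7, Scx, Thbs1, Thbs3 and Thbs4, against 23.7% of all genes. Of these, 2 lay higher in CD73+CD105+ cells and 2 lower, against 10.7% and 12.9% of all genes. Since the genes were listed with earlier results of these arrays known, neither count is an independent result. Every one of the 7 stood in all 6 arrays above 6.01, the 95th percentile of the mean levels of odorant and pheromone receptor genes, used here as a level for silent genes. Values are RMA log2 values of 1 probe set per gene, so levels of different genes are not set against each other, and every difference is CD73+CD105+ minus CD73+CD105- on that log2 scale.

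RefSeq promoter sequences of build GRCm38.p6 were read for 4 of the 7 genes, Tnmd, Thbs2, Thbs3 and Thbs4. Scx and Thbs1 had no entry among the sequences used, and Mkx was left out of this reading. The 250 bases before the start site are printed for 3 of the genes read. These are Tnmd and Thbs2, which went together across the arrays, and Thbs3, which went the other way. Capitals mark the E-box letters CANNTG, the kind of element that scleraxis and other basic helix-loop-helix factors bind, searched on both strands.
Tnmd, chrX:133850758-133851007, plus strand: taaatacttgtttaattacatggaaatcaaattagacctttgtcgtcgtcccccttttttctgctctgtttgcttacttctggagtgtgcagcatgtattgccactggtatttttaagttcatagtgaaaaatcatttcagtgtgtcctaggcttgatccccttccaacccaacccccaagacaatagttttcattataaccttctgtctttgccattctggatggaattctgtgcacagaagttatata
Thbs2, chr17:14694263-14694512, minus strand: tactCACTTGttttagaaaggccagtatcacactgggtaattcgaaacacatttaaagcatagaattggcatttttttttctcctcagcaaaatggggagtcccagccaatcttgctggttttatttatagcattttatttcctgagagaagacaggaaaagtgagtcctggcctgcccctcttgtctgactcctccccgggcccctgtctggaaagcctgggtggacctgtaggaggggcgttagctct
Thbs3, chr3:89214930-89215179, plus strand: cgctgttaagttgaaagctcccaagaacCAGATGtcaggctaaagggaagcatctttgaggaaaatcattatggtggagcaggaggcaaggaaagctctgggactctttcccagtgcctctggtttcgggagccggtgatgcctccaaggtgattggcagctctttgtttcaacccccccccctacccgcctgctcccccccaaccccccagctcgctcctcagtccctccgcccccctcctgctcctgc

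The Thbs2 stretch held 1 E-box, starting 246 bases before the start site, and 1 match to TATAAA, read on the opposite strand, 126 bases before it. The Thbs3 stretch held 1 E-box at 222 bases and 1 match to the GC box GGGCGG, on the opposite strand, at 21 bases before the start. The Thbs4 stretch (chr13:92794819-92795068, minus strand) held 1 E-box at 115 bases and 3 GC boxes at 89, 51 and 42 bases, and the Tnmd stretch held no match to any of these letters. No matches overlapped (0 in these stretches). Of 32851 promoter entries of the same length, 66.2% held an E-box, 12.4% TATAAA and 32.7% a GC box, so these matches describe the sequences and mark no site of binding.

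Scx, the earliest transcription factor gene of the tendon lineage, read 7.79, 7.44 and 8.01 in CD73+CD105- replicates 1, 2 and 3, and 8.11, 8.12 and 8.29 in CD73+CD105+ replicates 1, 2 and 3. All CD73+CD105+ arrays lay above all CD73+CD105- arrays, with a gap of 0.09 between the nearest arrays of each group. The means were 7.75 ± 0.29 and 8.17 ± 0.10 (SD, n = 3 each), and the difference was 0.42 (SE 0.15, 95% interval 0.08 to 0.77, limma adjusted p = 0.199). The spread among the CD73+CD105- arrays, 0.58 from lowest to highest, exceeded the difference, which was 0.27 without CD73+CD105- replicate 2.

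Mkx, the homeobox factor of tendon, read 8.17, 8.05 and 8.45 in the CD73+CD105- arrays and 8.67, 8.34 and 8.85 in the CD73+CD105+ arrays. The groups overlapped, because CD73+CD105- replicate 3 lay above CD73+CD105+ replicate 2. The means were 8.22 ± 0.21 and 8.62 ± 0.26 (SD, n = 3 each), with a difference of 0.40 (SE 0.15, 95% interval 0.03 to 0.76, limma adjusted p = 0.249).

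Tnmd, the membrane protein gene of mature tenocytes, had the widest spread of the 7. It read 11.24, 10.72 and 11.66 in CD73+CD105- replicates 1, 2 and 3, and 11.75, 11.51 and 12.11 in CD73+CD105+ replicates 1, 2 and 3. CD73+CD105- replicate 2 was low and CD73+CD105+ replicate 3 high, and the groups overlapped between CD73+CD105- replicate 3 and CD73+CD105+ replicate 2. The means were 11.21 ± 0.47 and 11.79 ± 0.30 (SD, n = 3 each), and the difference of 0.58 (SE 0.25, 95% interval -0.000177 to 1.16, limma adjusted p = 0.283) was smaller than the 0.94 between the lowest and highest CD73+CD105- arrays. Without CD73+CD105- replicate 2 it was 0.34 and without CD73+CD105- replicate 3 it was 0.81.

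**Figure D1:**
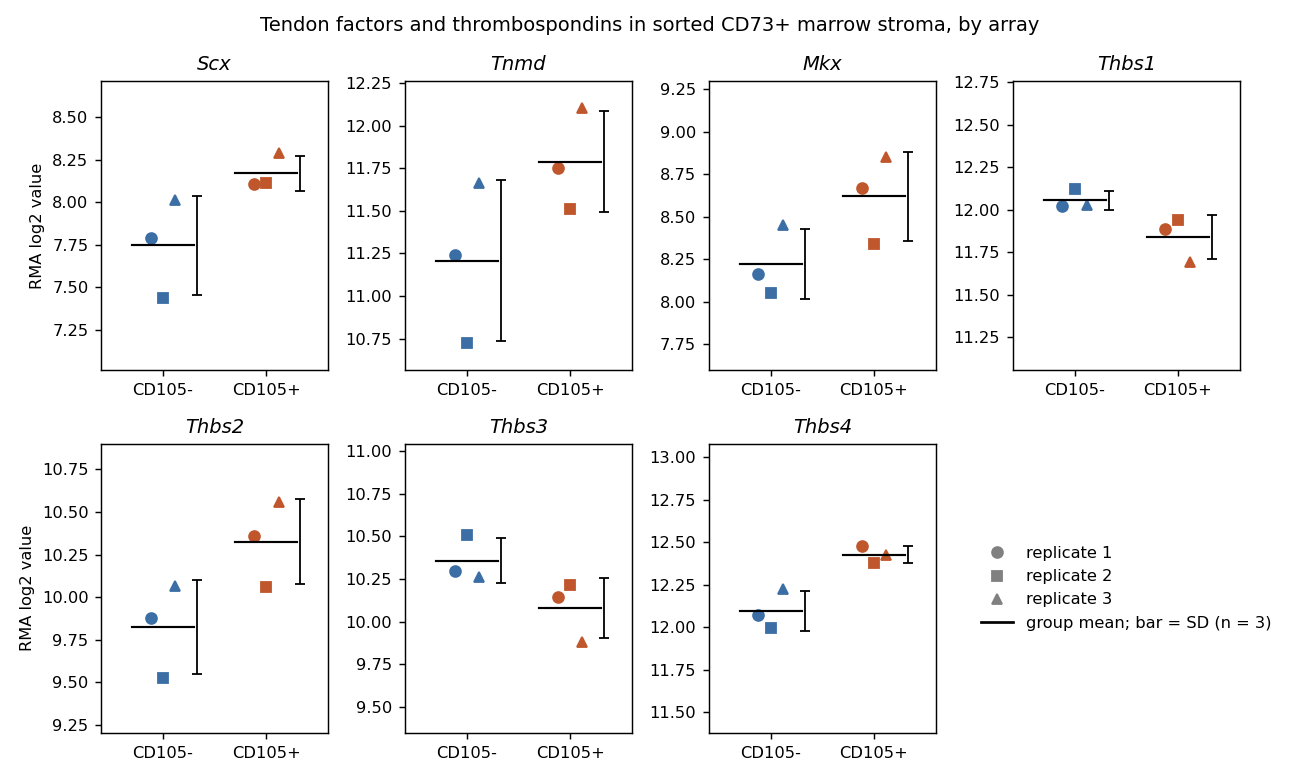
RMA log2 value (vertical axis, the same span in every panel) of each of the 7 genes in the CD73+CD105- and CD73+CD105+ arrays; points are arrays with the shape giving the replicate, lines are group means and bars the SD (n = 3). Scx, Thbs1, Thbs3 and Thbs4 show groups that do not overlap, while in Tnmd, Mkx and Thbs2 the lowest CD73+CD105+ array, replicate 2, lies below CD73+CD105- replicate 3.

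Among the thrombospondins that form trimers, Thbs1 and Thbs2 went opposite ways. Thbs1, whose product is stored in platelets and activates latent TGF-beta, read 12.02, 12.12 and 12.03 in the CD73+CD105- arrays and 11.89, 11.94 and 11.69 in the CD73+CD105+ arrays. The CD73+CD105+ arrays all lay lower, with a gap of 0.08. The means were 12.06 ± 0.06 and 11.84 ± 0.13 (SD, n = 3 each), and the difference was -0.22 (SE 0.09, 95% interval -0.42 to -0.02, limma adjusted p = 0.254). Leaving out CD73+CD105+ replicate 3, the lowest array, gave a difference of -0.14.

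Thbs2, a matrix thrombospondin of fibroblasts known for its part in collagen fibril assembly, read 9.88, 9.53 and 10.07 in the CD73+CD105- arrays and 10.36, 10.06 and 10.56 in the CD73+CD105+ arrays. CD73+CD105- replicate 3 and CD73+CD105+ replicate 2 were almost level, with the former slightly above, so the groups overlapped. The means were 9.82 ± 0.27 and 10.33 ± 0.25 (SD, n = 3 each), and the difference was 0.50 (SE 0.17, 95% interval 0.10 to 0.90, limma adjusted p = 0.194).

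The thrombospondins that form pentamers were also divided. Thbs3, a thrombospondin of the skeleton, read 10.30, 10.51 and 10.26 in the CD73+CD105- arrays and 10.14, 10.21 and 9.88 in the CD73+CD105+ arrays, so that the latter all lay lower with a gap of 0.05. Its means were 10.36 ± 0.13 and 10.08 ± 0.17 (SD, n = 3 each), with a difference of -0.28 (SE 0.11, 95% interval -0.54 to -0.01, limma adjusted p = 0.262). Without CD73+CD105+ replicate 3 this was -0.18.

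Thbs4, a thrombospondin of tendon and muscle, read 12.07, 11.99 and 12.23 in the CD73+CD105- arrays and 12.48, 12.38 and 12.43 in the CD73+CD105+ arrays. The CD73+CD105+ arrays lay close together and all above the others, with a gap of 0.15, the widest of the 4 separated genes. The means were 12.10 ± 0.12 and 12.43 ± 0.05 (SD, n = 3 each), and the difference was 0.33 (SE 0.08, 95% interval 0.14 to 0.52, limma adjusted p = 0.0988). It was the single gene of the 7 to pass in any alternative fit: with a variance prior that follows intensity its adjusted p was 0.0462, where 2.00% of all genes passed, and over the other alternatives the adjusted p ran up to 0.536. Comp, the cartilage and tendon protein of the same subfamily, differed by -0.09 (SE 0.09, limma adjusted p = 0.631).

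**Figure D2:**
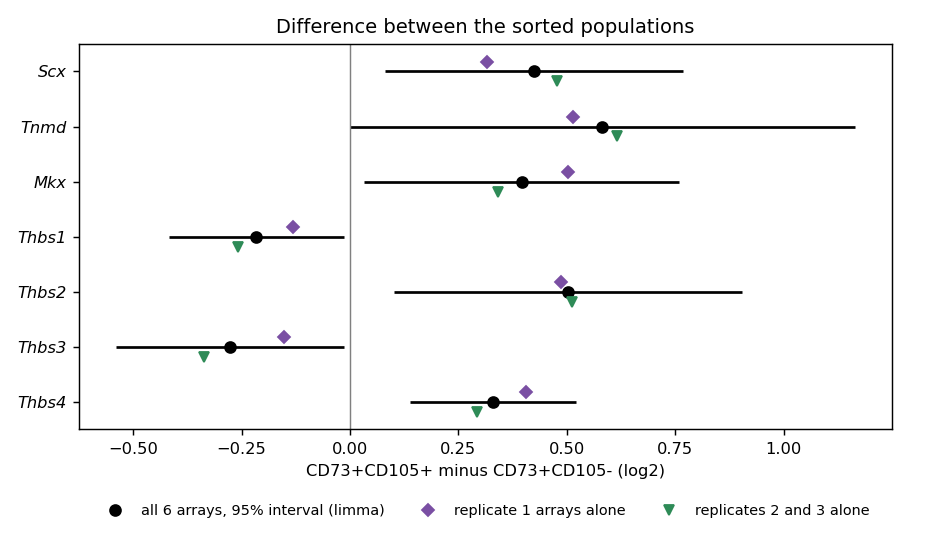
Difference between the populations for each gene on the log2 scale (horizontal axis), with the 95% interval of the fit to all 6 arrays, and the difference within the replicate 1 arrays and within replicates 2 and 3. The intervals of Scx, Mkx, Thbs2 and Thbs4 lie above 0, those of Thbs1 and Thbs3 below it, and that of Tnmd reaches it at -0.000177; these intervals are not adjusted for the number of genes, and 0 of 7 genes passed after adjustment.

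Each of the 7 differences had the same sign within the replicate 1 arrays and within replicates 2 and 3. The labels describe no batch, but for these genes the mean of the replicate 1 arrays lay between -0.02 and 0.07 of the mean of the other 4, a balance found across genes (SD 0.04 over all genes) for which no label gives a reason. A fit without a term for replicate 1 takes the 6 arrays as independent, which this balance goes against, so its p-values may be too small. Within replicate 1 the difference was 0.32 for Scx, 0.52 for Tnmd, 0.50 for Mkx and -0.13 for Thbs1. For Thbs2, Thbs3 and Thbs4 it was 0.49, -0.15 and 0.41. Within replicates 2 and 3 it was 0.48 for Scx, 0.62 for Tnmd, 0.34 for Mkx and -0.26 for Thbs1, and 0.51, -0.34 and 0.29 for Thbs2, Thbs3 and Thbs4. Scx, Tnmd, Thbs1, Thbs2 and Thbs3 were thus nearer 0 in replicate 1, and Mkx and Thbs4 farther from it. With a term for replicate 1 the adjusted p-values of the 7 genes ran from 0.251 to 0.463.

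Besides the step between populations, some of the genes shared a pattern among replicates. Scx and Thbs4 followed it only in part. Among the CD73+CD105+ arrays Scx was lowest in replicate 1 (8.11) and Thbs4 highest there (12.48). Tnmd, Mkx and Thbs2 were lowest in the replicate 2 array and highest in the replicate 3 array of both populations. As the replicate numbers were not taken as pairing the samples, arrays of the same number are likened here by label only. Thbs1 and Thbs3 had their highest value in the replicate 2 array of both, and CD73+CD105+ replicate 3 was the lowest array for each. Centred on its own mean, Tnmd spanned -0.78 in CD73+CD105- replicate 2 to 0.61 in CD73+CD105+ replicate 3. In the same arrays Thbs2 stood at -0.55 and 0.48, Mkx at -0.37 and 0.43, and Scx at -0.52 and 0.33. Thbs4 stood at -0.27 and 0.16 there. Thbs3 stood at 0.29 and -0.34, and Thbs1 at 0.17 and -0.26, so in these arrays Thbs3 and Thbs1 had signs opposite to the others.

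**Figure D3:**
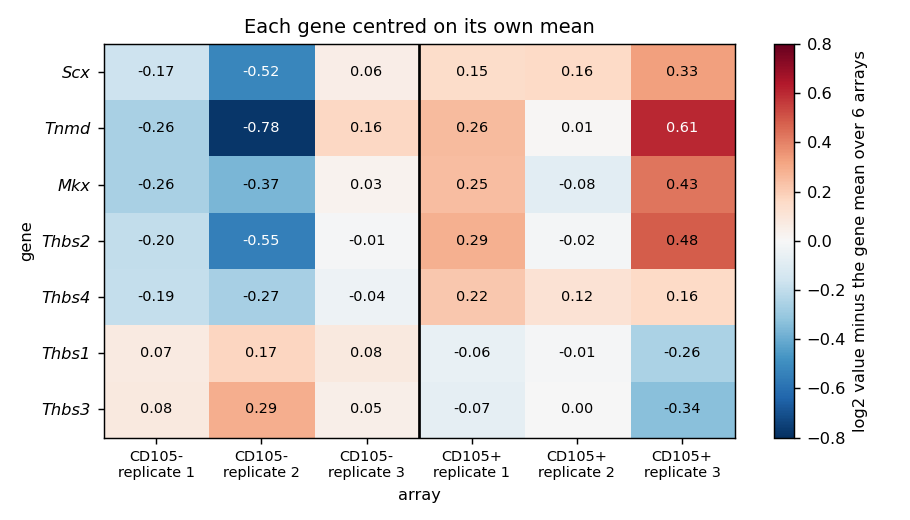
RMA log2 value of each gene (rows) in each array (columns) minus the gene's mean over the 6 arrays, with the value in each cell. Scx, Tnmd, Mkx, Thbs2 and Thbs4 are all lowest in CD73+CD105- replicate 2, and Thbs1 and Thbs3 are highest there and lowest in CD73+CD105+ replicate 3.

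Likeness of pattern was measured as the root mean square distance between centred log2 values over the 6 arrays, which share the populations and the replicate structure, so close genes are a description only. Between members it was smallest for Thbs1 and Thbs3 (0.0603) and for Mkx and Thbs2 (0.0879), and largest for Tnmd and Thbs3 (0.614). The distance depends on each gene's own spread, which was 0.135 for Thbs1 and 0.434 for Tnmd, so small distances do not mark the closest pairs. Counted among all genes searched, Thbs3 ranked only 170 in nearness to Thbs1. Thbs2 ranked 56 in nearness to Mkx and 26 in nearness to Tnmd (0.130). Among 11993 other named genes above the receptor level, those nearest to Tnmd were Ptn (0.0276), a heparin-binding growth factor, and Olfml2b (0.0571), a secreted olfactomedin-domain protein, where the median distance to Tnmd was 0.451. Nearest to Scx were Gpr137b (0.0300) and Pi16 (0.0379), a marker of adventitial fibroblasts. Nearest to Thbs1 was Acan (0.0258), which encodes the cartilage proteoglycan aggrecan, followed by the transcription factor subunit gene Taf13 (0.0263).

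For Thbs3 the nearest genes were Shisa4 (0.0190) and Col11a1 (0.0240), a fibrillar collagen chain of cartilage, where the median distance to Thbs3 was 0.220. Thbs2 lay nearest to Vldlr (0.0408), a lipoprotein receptor, and Btbd19 (0.0450). Mkx lay nearest to Ppp1r8 (0.0304) and Trp53inp1 (0.0307), and Thbs4 to the zinc transporter gene Slc30a1 (0.0215) and the retromer gene Vps26a (0.0262).

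Of 21 other measured tendon and ligament genes 0 passed in limma (3 at an unadjusted p under 0.05, against 17.7% of all genes). Their median difference was 0.11 against -0.02 over all genes and 0.40 over the 7 genes described here. The largest differences were those of Tnc, tenascin-C, an adhesion-modulating matrix protein, at 0.65 (SE 0.19, adjusted p = 0.151), and Col14a1, a collagen on fibril surfaces, at 0.54 (SE 0.30, adjusted p = 0.408). The Col14a1 difference was 0.28 or 0.84 when CD73+CD105- replicate 2 or 3 was left out, and 0.34 when CD73+CD105+ replicate 3 was. Tnc read 9.79, 9.56 and 10.25 in the CD73+CD105- arrays and 10.62, 10.24 and 10.71 in the CD73+CD105+ arrays, overlapping between the same 2 arrays as Tnmd. In 13 of the 21 the difference lay above 0, against 44.4% of all genes.

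Of 16 receptors and binding partners of thrombospondins 1 passed, higher in CD73+CD105+ cells, where 1.35% of all genes passed in that direction, and the list median was 0.13. It was Cd36, which encodes the type 1 repeat receptor and a fatty acid carrier of capillaries and adipocytes. Cd36 read 4.27, 4.57 and 4.72 in the CD73+CD105- arrays, all below the receptor gene level of 6.01, and 9.64, 8.71 and 9.40 in the CD73+CD105+ arrays, a difference of 4.73 in RMA values (SE 0.24, adjusted p = 0.000318). As the CD73+CD105- arrays lay at the level of silent genes, this size may understate the difference in transcript. The next largest difference was 0.39 for Cacna2d1, a calcium channel subunit that binds thrombospondins (SE 0.13, adjusted p = 0.18). Cd47, the other widely known thrombospondin receptor, named after its values were seen, differed by 0.27 (SE 0.09, adjusted p = 0.175). The genes of its ligands, Thbs1 and Thbs2, differed by -0.22 and 0.50 in the same arrays.

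Of 25 other genes for proteins with thrombospondin type 1 repeats 1 passed, where 1.82% of all genes did. It was Rspo2, an enhancer of Wnt signalling, at 0.64 (SE 0.08, adjusted p = 0.0172). This call was lost with the replicate 1 term (adjusted p = 0.0643), without CD73+CD105- replicate 1 (0.0788), without CD73+CD105+ replicate 1 (0.0843) and in replicates 2 and 3 alone (0.304). Its arrays read 6.47, 6.65 and 6.42 in CD73+CD105- and 7.21, 7.16 and 7.09 in CD73+CD105+ cells. Adamts9, a matrix protease gene, differed by 0.84 and did not pass (SE 0.28, adjusted p = 0.187). Its groups overlapped, and the difference was 1.63 within replicate 1 and 0.44 within replicates 2 and 3. These are values of the highest of its 6 probe sets. The median of this list was 0.02.

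**Figure D4:**
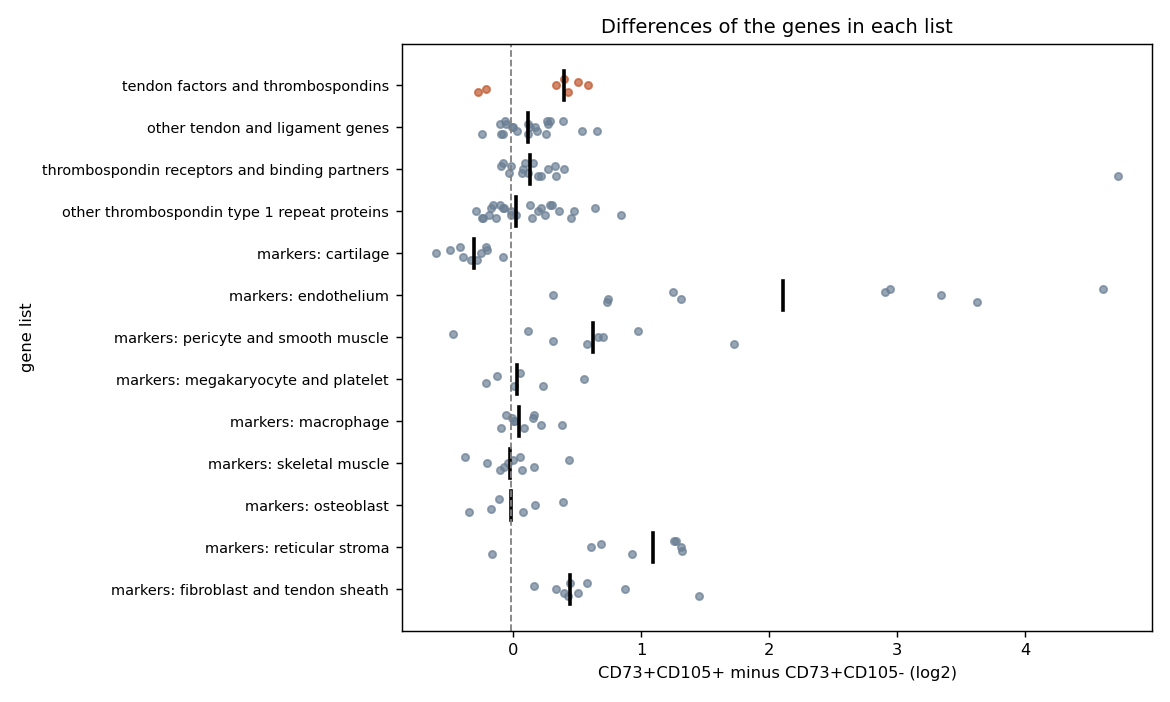
Difference between the populations (horizontal axis, log2) of every measured gene in each list; points are genes, black lines list medians and the dashed line the median of all genes (-0.02). The 7 genes in orange lie between -0.28 and 0.58 with a median of 0.40, and Cd36 stands apart in the receptor list at 4.73.

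Markers of other cell types moved beside these genes, and their part in the differences was not tested; in bulk samples fewer cells of a type and less RNA per cell cannot be told apart. All 10 cartilage markers, led by Matn1 (-0.61) and Col9a2 (-0.49), had differences below 0, where 44.4% of all genes had differences above 0. Of these markers 0 passed in limma (7 at an unadjusted p under 0.05, against 17.7% of all genes). Their mean log2 value per array was 11.42, 11.61 and 11.35 in CD73+CD105- replicates 1, 2 and 3 and 11.19, 11.32 and 10.89 in CD73+CD105+ replicates 1, 2 and 3. That is the same order of arrays within each population as Thbs3 showed. The osteoblast marker Ibsp had it too (12.55, 12.74 and 12.35, then 12.77, 12.94 and 12.44), so this order is not particular to cartilage markers. The 9 measured fibroblast and tendon sheath markers, among them Pi16, all had differences above 0, with a median of 0.44. Of these markers 8 had an unadjusted p under 0.05 in limma, against 17.7% of all genes. In limma 1 passed, Cd34 (1.45, adjusted p = 0.00264, or 0.083 in replicates 2 and 3 alone), where 1.35% of all genes passed in that direction. The mean of the 9 markers per array was 9.25, 8.99 and 9.39 and then 9.76, 9.68 and 9.91, the same order within each population as Tnmd, Mkx and Thbs2. The pericyte and smooth muscle markers had that order as well (7.40, 7.26 and 7.43, then 7.91, 7.83 and 8.07), so it is not particular to 1 list.

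Summed on the linear scale, the cartilage markers ranged from 31161 to 37090 in the CD73+CD105- arrays and from 23986 to 30960 in the CD73+CD105+ arrays. The fibroblast and tendon sheath markers ranged from 8071 to 10898 and from 12716 to 15064. Of 10 endothelial markers 9 passed, all higher in CD73+CD105+ cells, where 1.35% of all genes passed in that direction. The list median was 2.11 and the sums were 568 to 671 against 3058 to 4079. Among the 9 were Emcn (4.61), Pecam1 (3.63), Cdh5 (3.34) and Ptprb (2.94). The CD73+CD105- means of Emcn, Pecam1 and Ptprb, 4.58, 5.69 and 5.71, lay below the silent gene level, so these sizes may be understated and have no order. Of 8 pericyte and smooth muscle markers 4 passed and of 8 reticular stroma markers 6 passed, all higher, against the same 1.35% of all genes. These lists had medians of 0.62 and 1.09 and sums of 1666 to 2015 against 2233 to 2865, and of 2057 to 2597 against 4255 to 4797. They were led by Rgs5 (1.72) and Adipoq (1.32). Cspg4 in the pericyte list (-0.47, adjusted p = 0.0634) and Foxc1 in the reticular list (-0.17, adjusted p = 0.364) had differences below 0. With the replicate 1 term 6 endothelial, 1 pericyte and smooth muscle and 1 reticular stroma marker passed, where 101 of all 19938 genes did. The limma adjusted p with that term was 0.0643 for Rgs5 and 0.0821 for Adipoq. Leaving out 1 array gave up to 0.0943 for Rgs5, without CD73+CD105- replicate 1, and up to 0.116 for Adipoq, without CD73+CD105+ replicate 1.

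The platelet and megakaryocyte markers, which bear on Thbs1, held 0 of 6 measured past the threshold in limma (1 at an unadjusted p under 0.05, median 0.03, summed 339 to 376 against 340 to 387). Of these 6 markers, Pf4, Ppbp and Clec1b lay below 6.01 in all 6 arrays, Gp9 lay above it in 2 arrays, and Itga2b and Treml1 lay above it in all 6. Of 10 macrophage, 10 skeletal muscle and 6 osteoblast markers 0 passed in limma, with medians of 0.05, -0.02 and -0.02. In each list 2 had an unadjusted p under 0.05 in limma, against 17.7% of all genes. Their sums were 479 to 485 against 487 to 554, 2488 to 2988 against 2196 to 2689, and 8433 to 10240 against 8200 to 11187. Of the macrophage markers 7 of 10 lay below 6.01 in every array. The gene for the sorted protein, Eng, differed by 1.76 (adjusted p = 0.00322, or 0.0915 in replicates 2 and 3 alone), in the direction of the labels.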

How the data were processed

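Total RNA of 6 sorted samples was biotin-labelled and hybridised to 1 array each, per the labels. The table holds log2 values for each probe set, which the authors made with RMA (background correction, quantile normalization and probe summary), per the submitters' processing notes. The build used for them is not given in the sources used here. Of 35556 probe sets 21789 had exactly 1 gene symbol; the one with the highest mean over the 6 arrays was kept, which gave 19938 genes. Each of the 7 genes had 1 such probe set. Detection calls were not used. Precision is limited by having 3 arrays a group, with a median standard error of 0.0928 over all genes. For the 7 genes the standard error ran from 0.08 for Thbs4 to 0.25 for Tnmd.

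Differences were fitted with limma 3.58.1 (lmFit, eBayes, two-sided, no block) in R 4.3.3, with Benjamini-Hochberg adjustment over all genes at 0.05. The fit was also run on simulated independent arrays, with added shifts larger than the differences of the 7 genes. That run does not bear on differences of their size or on the replicate 1 balance. Groups and replicate numbers came from the sample titles. The listed genes and gene lists were chosen with earlier results of these data known. All 7 genes were named, and from each other list of tendon or thrombospondin genes up to 4 genes past the threshold or, where fewer than 2 passed, the 2 with the largest difference; Cd47, Comp, Eng and the leading cell type markers were added, Comp for its family and Eng as the sort marker. Several list symbols had no probe set with 1 symbol. Alternatives were each array left out, the replicate number as a block, a replicate 1 term, parts of the arrays, renormalization, a filter, averaged probe sets and another variance prior.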

Additional observations from a re-analysis of the deposited data

How the results depend on the processing

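All 7 differences kept their sign in the 10 alternatives that could move them (in the other 5 the difference is the same by construction and only its error can change), and 104 alternative values, all but 1, stayed on the same side of the threshold or, with no test, within 1 SD. The exception was Thbs4, whose adjusted p was 0.0462 with the intensity-following variance prior (difference 0.33), which gave 1 of 7 genes past the threshold in place of 0. Fits with fewer arrays or residual degrees of freedom pass fewer genes, and 0 of 7 passed with all arrays. Staying short of the threshold in those fits was thus likely beforehand and says little about stability. Centring the arrays on their medians moved the 14 group levels by less than 1 SD; averaging probe sets could not move them. With 1 array left out the differences ran from 0.27 to 0.56 for Scx, 0.34 to 0.81 for Tnmd, 0.28 to 0.54 for Mkx, -0.27 to -0.14 for Thbs1, 0.35 to 0.64 for Thbs2, -0.34 to -0.18 for Thbs3 and 0.28 to 0.39 for Thbs4, and 0 of 7 passed. The count over all genes, 363, was 86 to 293 with 1 array left out, 101 with the replicate 1 term and 29 in replicates 2 and 3 alone, settings with fewer samples or residual degrees of freedom.

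With the replicate block 215 of all genes and 0 of 7 passed (lowest adjusted p 0.0752, for Thbs2). The correlation over genes of deviations from the group mean was -0.88, 0.00659 and 0.10 for arrays numbered 1, 2 and 3. The replicate 1 arrays deviated in opposite directions, which is the balance given above, and the numbers were not taken as pairing the samples. The number of arrays and the compression of RMA values limit how small a difference could pass.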

Other observations

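Genes that lie beside the 7 in the RefSeq table were read for comparison, by name only. Scx overlaps Bop1, a ribosome biogenesis gene, which had means of 6.84 ± 0.25 and 6.53 ± 0.06 (SD, n = 3 each) in CD73+CD105- and CD73+CD105+ cells, a difference of -0.31 (limma adjusted p = 0.264) and so of opposite sign to Scx. Mtx1, the coding neighbour of Thbs3 on one side, differed by 0.18 (limma adjusted p = 0.505), opposite in sign to Thbs3, and Muc1 on the other side by -0.40 (limma adjusted p = 0.693). Beside Thbs2, the matricellular gene Smoc2 differed by -0.28 (limma adjusted p = 0.406) and Wdr27 by 0.13 (limma adjusted p = 0.318). Beside Tnmd, Tspan6 differed by -0.23 (limma adjusted p = 0.509) and Pcdh19 by 0.27 (limma adjusted p = 0.369). Mroh1 beside Scx differed by 0.05, Fsip1 and Rasgrp1 beside Thbs1 by -0.13 and 0.08, and Mtx3 and Serinc5 beside Thbs4 by 0.19 and -0.10. Rab18 and Armc4 beside Mkx differed by -0.01 and 0.00126. Armc4, Fsip1, Rasgrp1 and Wdr27 lay below 6.01, the level for silent genes, in all 6 arrays. Signs like and unlike the gene beside them were both found, and none of these neighbours passed the threshold.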
